A study of Mus musculus with 4 samples.

Results

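The 10 genes described here encode DARPP-32 and further proteins of its pathway or of the same striatal neurons. These are phosphatases, phosphatase inhibitors, a phosphatase scaffold, a kinase and the phosphoprotein ARPP-21. The genes were picked by gene symbol for these roles. All 10 were present among the 32531 gene rows, and all 10 were among the 14493 genes that passed the filter on low counts. Their levels in nucleus accumbens were set against those in dorsal striatum, both from mice aged over 20 months. Each region had 2 libraries labelled as input. This is read here as RNA of the tissue, as distinct from RNA pulled down with tagged ribosomes. Every animal carried the Drd1-EGFP/Rpl10a transgene of line CP73, a bacTRAP allele in which regulatory sequence of the dopamine receptor gene Drd1 drives a tagged ribosomal protein, so there was no group without it. The labels do not say whether libraries came from single or pooled animals, and any p-value therefore reflects the spread among these libraries alone, which may be technical.

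DARPP-32, the product of Ppp1r1b, is a small cytosolic protein of spiny projection neurons (SPNs), the principal neurons of the striatum. Dopamine acting through D1 receptors raises cAMP, and protein kinase A then phosphorylates DARPP-32, which turns it into an inhibitor of protein phosphatase 1 (PP1). The calcium-dependent phosphatase calcineurin removes that phosphate, and phosphorylation by Cdk5 at another site makes DARPP-32 an inhibitor of protein kinase A instead. ARPP-21, ARPP-19 and the tyrosine phosphatase STEP are further targets of protein kinase A known from the same neurons.

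The libraries held 8606099 and 8478403 counts assigned to genes in accumbens and 8991788 and 11849134 in dorsal striatum. The tissue label was read against 12 SPN marker genes, all of which were detected, with a summed level of 5862 and 4907 CPM (counts scaled to library size with TMM factors) in accumbens and 6842 and 6703 CPM in dorsal striatum. Among these 12, 1 gene, Rgs9, passed the test and was lower in accumbens, and the groups did not overlap for 6 genes lower and 2 higher in accumbens. Of all tested genes 1.28% passed, and the groups did not overlap for 25.6% in each direction. The marker counts in this paragraph are to be read against these shares. Rgs9 and Pde10a, both lower in accumbens, were left out after their values were seen. Without them the sums were 3584 and 2986 CPM in accumbens and 3258 and 3428 CPM in dorsal striatum, which overlap. That sum holds Penk, 1 of the 2 higher genes, at 1085 and 770 CPM in accumbens against 584.7 and 744.4 CPM in dorsal striatum. The overlap therefore depends on which genes were left out. Drd1 was at 257.7 and 219.8 CPM in accumbens against 300.0 and 285.6 CPM in dorsal striatum. Markers of cortical glutamatergic neurons summed over 9 tested genes to 426.1 and 265.5 CPM in accumbens against 197.3 and 110.8 CPM in dorsal striatum, with 0 past the threshold. Of the markers of other cells, 1 of 8 interneuron genes (Sst) and 1 of 8 astrocyte genes (Gja1) passed, both higher in accumbens, and 0 of 7 oligodendrocyte, 0 of 6 microglial and 0 of 4 vascular genes did. Their part in the results on the 10 genes was not tested.

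None of the 10 genes passed the threshold of 0.05 on the adjusted p in the quasi-likelihood test of edgeR, where 1.28% of all tested genes passed. At an unadjusted p under 0.05 there were 3, Arpp21, Arpp19 and Ppp1ca, all lower in accumbens, against 19.2% of all tested genes in either direction. Both accumbens libraries lay below both dorsal striatum libraries for 4 of the 10 genes (25.6% of all tested genes) and above them for 1 (25.6% of all tested genes), and the groups overlapped for the other 5. With 10 genes, neither share is read as a result about them. The median log2 fold change, accumbens over dorsal striatum, was −0.14 over the 10 genes and 0.02 over all tested genes. DESeq2 called 1 of the 10, Arpp19, where it called 6.10% of all genes, and limma-voom called none, where it called 2.97%. Because tissue was sequenced in bulk, fewer neurons of a type and less RNA per neuron cannot be told apart in any of these values.

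**Figure D1:**
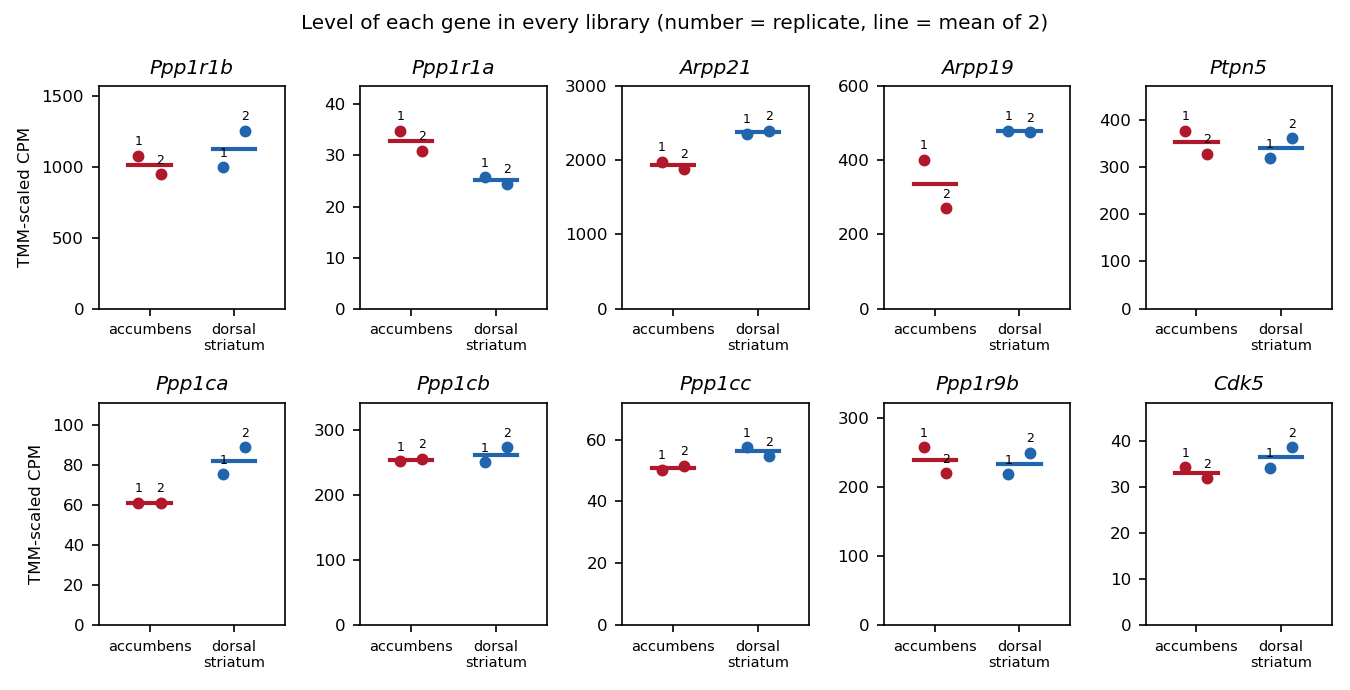
TMM-scaled CPM (vertical axis, from 0) of each of the 10 genes in the 2 accumbens libraries (red, left) and the 2 dorsal striatum libraries (blue, right), with the replicate number above each point and a line at the mean of 2. Arpp21, Arpp19, Ppp1ca and Ppp1cc sit lower in accumbens without overlap, Ppp1r1a sits higher without overlap, and the groups of the other 5 genes overlap.

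Ppp1r1b, the DARPP-32 gene (GRCm38 chromosome 11, 98348404 to 98357796, plus strand), was at 1081 and 949.4 CPM in accumbens against 1000.2 and 1259 CPM in dorsal striatum. The highest and the lowest of these libraries were dorsal striatum replicate 2 and accumbens replicate 2, and the groups overlapped. Averaged over replicates this gave 1015 ± 93.4 CPM in accumbens, against 1129 ± 182.7 CPM in the dorsal region (SD, n = 2 each). This is a log2 fold change of −0.15 (SE 0.14, edgeR adjusted p = 0.602), with a 95% interval of −0.47 to 0.17. On the fold scale that interval runs from 0.720 to 1.12. Exons of 1700003D09Rik on the opposite strand cover 15.7% of the exon bases of Ppp1r1b, and without a known strand setting reads there cannot be told apart. Ppp1r1b was the gene ranked 64 and 74 by CPM in the accumbens libraries, and 58 and 42 in the dorsal striatum libraries. Relative to Drd1 in the same library, it had 4.20 and 4.32 counts per Drd1 count in accumbens and 3.33 and 4.41 in dorsal striatum, again with overlap.

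Ppp1r1a encodes inhibitor-1, the paralog of DARPP-32 that inhibits PP1 in the same phosphorylation-dependent way and is expressed in many tissues. Its gene (chromosome 15, 103530279 to 103538003, minus strand) was at 34.9 and 30.9 CPM in accumbens against 25.7 and 24.5 CPM in dorsal striatum, on 245 to 308 counts per library. Both accumbens libraries were above both dorsal striatum libraries. The log2 fold change of 0.39 (SE 0.22, edgeR adjusted p = 0.377) did not pass, and its 95% interval of −0.11 to 0.89 was the widest of the 10. The cortical markers were higher in the accumbens libraries as well, in 6 of 9 genes without overlap (25.6% of all tested genes), though none passed. Slc17a7, which marks cortical excitatory neurons, was at 198.0 and 79.4 CPM in accumbens against 32.3 and 0.717 CPM in dorsal striatum, and Neurod6 was listed at 0 in dorsal striatum replicate 2. Their part in the level of Ppp1r1a was not tested.

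Within each library Ppp1r1b outnumbered Ppp1r1a by 31.0 and 30.7 counts to 1 in accumbens, against 38.9 and 51.3 to 1 in dorsal striatum. The groups did not overlap in this ratio, which needs no scaling between libraries. An exact permutation test over 2 against 2 libraries cannot give a two-sided p below 0.333, so no p is attached to this or any other ratio given here.

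Arpp21 encodes ARPP-21, a cAMP-regulated phosphoprotein whose short form binds calmodulin and whose long form binds RNA. It was the most abundant of the 10 by counts, at 1979 and 1887 CPM in accumbens against 2358 and 2400.3 CPM in dorsal striatum, with ranks of 20 and 26 against 14 and 16 among all tested genes. The replicates of each region lay close together, and both accumbens libraries were below both dorsal striatum libraries. Averaged over replicates this gave 1933 ± 65.4 CPM in accumbens, against 2379 ± 30.1 CPM in the dorsal region (SD, n = 2 each). The log2 fold change of −0.30 (SE 0.10) had a 95% interval of −0.53 to −0.07, the narrowest of the 10, and an unadjusted p of 0.0162. After adjustment over all genes it did not pass (edgeR adjusted p = 0.159). The sum of the 12 SPN markers was also lower in both accumbens libraries. The sum without Rgs9 and Pde10a overlapped, but these were left out after their values were seen. The part of the SPN markers in the Arpp21 difference was not tested.

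The Arpp21 gene spans chromosome 9, 112065091 to 112235938, on the minus strand, and one of its introns holds the miRNA gene Mir128-2. The mature miRNA is shown because it lies within the most abundant of the 10 genes, on the same strand (RefSeq, GRCm38.p6, chr9:112118644-112118664, minus strand, seed at bases 2 to 8 in capitals).
mmu-miR-128-3p: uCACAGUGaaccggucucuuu
The row of Mir128-2 held 1 and 2 counts in accumbens and 1 and 0 in dorsal striatum. These libraries were made from input RNA and counted per gene, and nothing can be said from such counts about the mature miRNA.

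Arpp19 encodes ARPP-19, which once phosphorylated by the kinase Mastl inhibits protein phosphatase 2A (PP2A). Its gene (chromosome 9, 75037614 to 75060313, plus strand) was at 401.8 and 271.0 CPM in accumbens against 480.2 and 476.1 CPM in dorsal striatum. The dorsal striatum libraries were nearly equal, while accumbens replicate 1 had 1.48 times the level of replicate 2, and both accumbens libraries were the lower ones. Averaged over replicates this gave 336.4 ± 92.5 CPM in accumbens, against 478.1 ± 2.91 CPM in the dorsal region (SD, n = 2 each). The log2 fold change of −0.51 (SE 0.18, 95% interval −0.92 to −0.09) was the largest of the 10 in size, with an edgeR adjusted p of 0.182.

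Arpp19 was the only one of the 10 genes that passed under any alternative. It passed with DESeq2 (adjusted p = 0.0438) and with no filter on low counts in edgeR (adjusted p = 0.0107, where 5.68% of all genes passed). Without accumbens replicate 1 its log2 fold change was −0.82 (edgeR adjusted p = 0.000638), where 18.2% of all genes passed, and without accumbens replicate 2 it was −0.25 (edgeR adjusted p = 0.184), where 28.9% passed. In the fits that left out an accumbens library the remaining one was assumed to have the spread of the other pair. Without dorsal striatum replicate 1 or replicate 2 its log2 fold change was −0.52 in both fits, and neither passed. The SPN marker sum was likewise higher in accumbens replicate 1 than in replicate 2, at 5862 against 4907 CPM, and its part in the spread of Arpp19 was not tested.

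The upstream windows of both ARPP genes are shown with that of Ppp1cb, whose level differed little between the regions, because the pathway signals through cAMP. Each window is 300 bases of RefSeq sequence on GRCm38.p6, printed 5′ to 3′ on the gene's strand, with 250 bases before an annotated start and 50 after it. Capitals mark the half-site of the cAMP response element, TGACG. The Arpp21 window is 1 of 9 at annotated starts of that gene. It was picked as 1 of the 3 that hold the half-site, and the other 6 do not. Of these 3, the window at chr9:112217302-112217601 overlaps the one shown and holds the same site. Counts per gene do not show which start is used.
Arpp21 (chr9:112217212-112217511, minus strand): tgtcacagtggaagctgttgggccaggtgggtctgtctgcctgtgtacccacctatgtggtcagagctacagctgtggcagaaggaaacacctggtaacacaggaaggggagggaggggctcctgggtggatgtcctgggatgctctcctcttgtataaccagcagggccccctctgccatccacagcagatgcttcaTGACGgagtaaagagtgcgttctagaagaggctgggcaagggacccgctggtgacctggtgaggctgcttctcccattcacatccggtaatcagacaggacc
Arpp19 (chr9:75037364-75037663, plus strand): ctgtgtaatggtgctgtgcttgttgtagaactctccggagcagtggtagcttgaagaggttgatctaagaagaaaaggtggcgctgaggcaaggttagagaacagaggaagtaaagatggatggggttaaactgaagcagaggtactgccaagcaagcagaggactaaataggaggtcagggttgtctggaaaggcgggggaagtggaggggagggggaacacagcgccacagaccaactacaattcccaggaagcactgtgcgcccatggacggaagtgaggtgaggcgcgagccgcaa
Ppp1cb (chr5:32458720-32459019, plus strand): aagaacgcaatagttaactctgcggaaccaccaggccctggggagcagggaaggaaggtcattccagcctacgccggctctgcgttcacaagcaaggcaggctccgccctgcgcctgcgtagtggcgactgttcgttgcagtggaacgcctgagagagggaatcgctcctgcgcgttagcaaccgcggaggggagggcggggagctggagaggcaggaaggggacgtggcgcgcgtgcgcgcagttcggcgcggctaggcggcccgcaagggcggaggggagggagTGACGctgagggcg
The half-site begins at base 199 of the Arpp21 window and at base 287 of the Ppp1cb window. These letters do not occur on either strand of the Arpp19 window shown. A second Arpp19 window (chr9:75037482-75037781), not shown, also lacks them. On either strand the 5 letters TGACG are found in 20.8% of 32851 such windows, and the full 8-letter element TGACGTCA, which contains the half-site, in 1.79%. None of the 16 windows of these genes held the full element. RefSeq windows were matched for 6 of the 10 genes. These matches describe letters and say nothing about binding.

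Ptpn5 encodes STEP, the striatal-enriched tyrosine phosphatase that dephosphorylates glutamate receptor subunits, among other proteins. Its gene (chromosome 7, 47077795 to 47133684, minus strand) was at 377.8 and 328.9 CPM in accumbens against 319.1 and 361.7 CPM in dorsal striatum, with the highest and next lowest values both in accumbens. Between the regions the log2 fold change came to 0.05 (SE 0.13, 95% interval −0.25 to 0.36, edgeR adjusted p = 0.874). On the fold scale the interval runs from 0.840 to 1.28. The sign of so small a value followed the setting, since it was −0.12 with scaling by library size alone. Against Ppp1r1b in the same library, Ptpn5 had 0.349 and 0.346 counts per count in accumbens and 0.319 and 0.287 in dorsal striatum, without overlap.

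PP1, the phosphatase that DARPP-32 inhibits, has catalytic subunits encoded by Ppp1ca, Ppp1cb and Ppp1cc. Ppp1ca, the alpha isoform gene (chromosome 19, 4192065 to 4195420, plus strand), was at 61.1 and 61.0 CPM in accumbens against 75.3 and 88.8 CPM in dorsal striatum. The accumbens libraries were all but equal and both lower. This corresponds to a log2 fold change of −0.43 (SE 0.17, 95% interval −0.81 to −0.05), with an unadjusted p of 0.0319 and an edgeR adjusted p of 0.216. Exons of other genes on the opposite strand, those of Rad9a foremost, cover 16.5% of its exon bases, and because the strand setting of the counting is not given, reads there cannot be assigned with certainty.

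Ppp1cb, the beta isoform gene (chromosome 5, 32458843 to 32517433, plus strand), was at 252.5 and 255.9 CPM in accumbens against 250.5 and 274.1 CPM in dorsal striatum. Its groups overlapped, and the log2 fold change was −0.05 (SE 0.12, 95% interval −0.33 to 0.24, edgeR adjusted p = 0.887). Exons of Gm43312 on the same strand cover 17.5% of its exon bases. Ppp1cc, the gamma isoform gene (chromosome 5, 122158278 to 122175273, plus strand), was at 50.3 and 51.6 CPM in accumbens against 57.6 and 54.7 CPM in dorsal striatum. Both accumbens libraries were the lower ones, by a log2 fold change of −0.14 (SE 0.17, edgeR adjusted p = 0.715), and the 95% interval reached from −0.53 to 0.25. Its counts are uncertain because of shared sequence. Of the 50-base words of its longest coding transcript, 58.8% also occur in transcripts of 5 other genes, led by Ppp1ccb.

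Per kilobase of exon, Ppp1ca made up 39.1% and 38.6% of the summed counts of the PP1 catalytic genes in accumbens, against 42.9% and 46.2% in dorsal striatum. Ppp1cb made up 37.3% and 37.4% in accumbens and 32.9% and 32.9% in dorsal striatum. Ppp1cc took the rest, 20.9% to 24.1% in all libraries. These shares carry the limits of the counts. Of the 50-base words of Ppp1cc, 58.8% also occur in other genes. Exons of other genes cover 16.5% of the exon bases of Ppp1ca and 17.5% of those of Ppp1cb. The Ppp1ca share was lower and the Ppp1cb share higher in both accumbens libraries, and this did not change with the longest coding transcript in place of all exons. By that length the order of the leading pair differed, with Ppp1cb at 40.4% and 40.5% and Ppp1ca at 39.5% and 39.1% in accumbens.

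**Figure D2:**
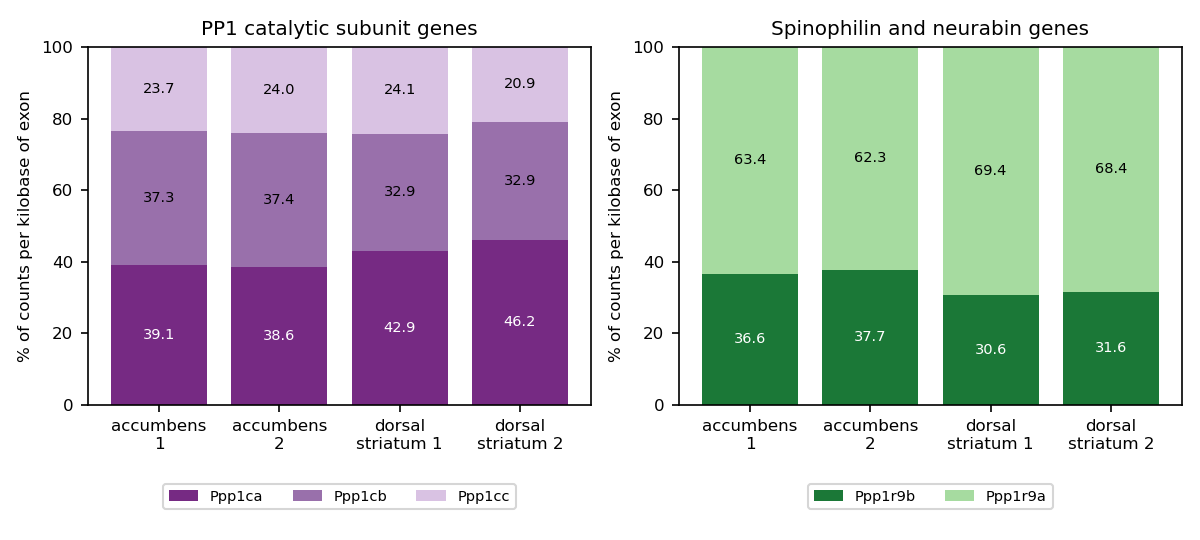
Share of the counts per kilobase of exon (percent, stacked to 100) that each gene takes within its family, in each accumbens library (left) and each dorsal striatum library (right). The left panel shows the PP1 catalytic genes, with Ppp1ca at 39.1% and 38.6% in accumbens against 42.9% and 46.2% in dorsal striatum, and the right panel shows Ppp1r9b beside Ppp1r9a, with Ppp1r9b at 36.6% and 37.7% against 30.6% and 31.6%.

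Ppp1r9b encodes spinophilin, a scaffold that brings PP1 to dendritic spines. Its gene (chromosome 11, 94991035 to 95006899, plus strand) was at 258.2 and 220.3 CPM in accumbens against 218.4 and 250.1 CPM in dorsal striatum. The groups overlapped, and the log2 fold change was 0.03 (SE 0.14, 95% interval −0.29 to 0.35, edgeR adjusted p = 0.941). Its paralog neurabin, encoded by Ppp1r9a, was at 1276 and 1039 CPM in accumbens against 1413 and 1551 CPM in dorsal striatum (a log2 fold change of −0.36, SE 0.13, edgeR adjusted p = 0.189). Counted per kilobase of exon, spinophilin thus made up 36.6% and 37.7% of the pair in accumbens and 30.6% and 31.6% in dorsal striatum. Ppp1r9a passed under 1 of 11 alternatives, the fit without accumbens replicate 1 (log2 fold change −0.52, edgeR adjusted p = 0.0156), in which 18.2% of all genes passed. Without accumbens replicate 2 its log2 fold change was −0.22 (edgeR adjusted p = 0.241).

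Cdk5 encodes the cyclin-dependent kinase 5 that phosphorylates DARPP-32 in neurons. Its gene (chromosome 5, 24418241 to 24423530, minus strand) was at 34.2 and 31.8 CPM in accumbens against 34.1 and 38.6 CPM in dorsal striatum, and the groups overlapped by a narrow margin. Its log2 fold change came to −0.14 (SE 0.20, 95% interval −0.61 to 0.32, edgeR adjusted p = 0.762). With 254 to 485 counts per library, Cdk5 and Ppp1r1a were the genes with the fewest counts and the widest intervals.

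**Figure D3:**
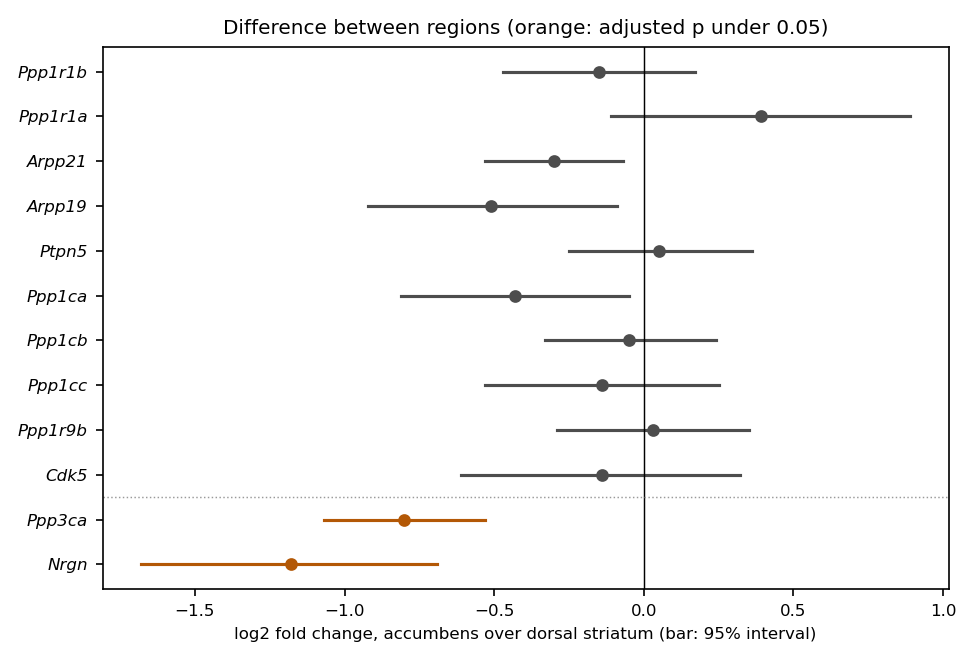
Log2 fold change, accumbens over dorsal striatum, with its 95% interval (horizontal axis) for the 10 genes and, below the dotted line, for Ppp3ca and Nrgn. The intervals of Arpp21, Arpp19 and Ppp1ca lie below 0 but none of the 10 genes passed after adjustment, while Ppp3ca at −0.80 and Nrgn at −1.18 (orange) passed.

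Levels of the 10 genes were compared with each other per kilobase of exon. Ppp1r1b was highest, at 369.3 and 324.2 CPM per kilobase in accumbens against 341.6 and 429.8 in dorsal striatum. Arpp21 followed at 113.6 and 108.3 in accumbens against 135.3 and 137.7 in dorsal striatum, in the same unit. Arpp21 has 17428 bases of annotated exon but 3952 in its longest coding transcript, and by that shorter length it stood at 500.8 and 477.4 CPM per kilobase in accumbens, against 540.4 and 474.5 for Ppp1r1b. In dorsal striatum the values by that length were 596.6 and 607.4 for Arpp21 and 499.9 and 629.0 for Ppp1r1b. The order of this pair therefore rests on the gene model.

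Arpp19 lay at 54.7 to 96.9 CPM per kilobase of exon over the libraries and Ptpn5 at 55.1 to 65.2, so their ranges overlapped, and Ppp1r9b followed at 43.0 to 50.8. Ppp1ca, Ppp1cb and Ppp1r1a, at 18.8 to 35.2, could not be ordered over all libraries. Cdk5 and Ppp1cc were lowest by this length, at 14.7 to 17.8. By the longest coding transcript Ppp1cc was at 21.1 to 24.2 and overlapped Ppp1r1a at 18.8 to 26.7, so this order too rests on the gene model. The level of Ppp1cc is also uncertain because 58.8% of its 50-base words occur in other genes as well. The median absolute difference between replicates of these genes was 0.140 log2 units in accumbens and 0.153 in dorsal striatum. All tested genes had 0.384 and 0.196, but they include many genes with lower levels, so the comparison is not at like levels. Arpp19 was less close, with accumbens replicate 1 at 1.48 times the level of replicate 2.

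**Figure D4:**
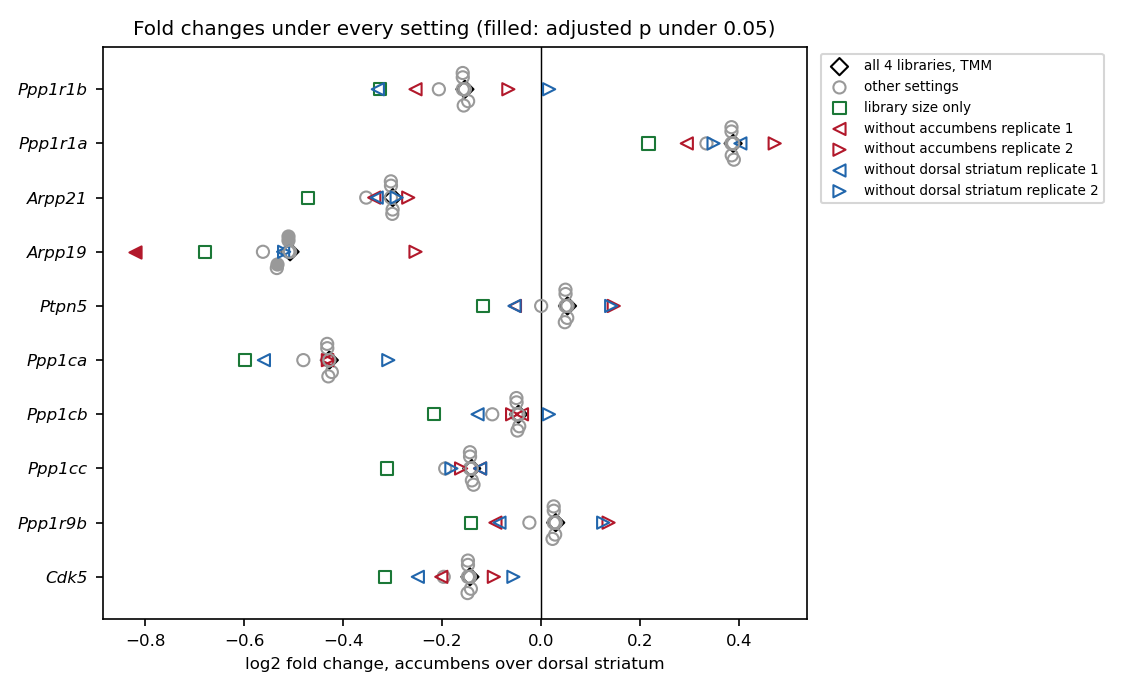
Log2 fold change, accumbens over dorsal striatum (horizontal axis), of each gene under every setting tried; filled symbols passed the adjusted threshold and small vertical offsets only separate symbols. Arpp19 runs from −0.82 to −0.25 and has the only filled symbols, and Arpp21 runs from −0.47 to −0.27. Ptpn5 and Ppp1r9b lie on both sides of 0, as do Ppp1r1b (−0.33 to 0.02) and Ppp1cb (−0.22 to 0.02).

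The other genes of the pathway were taken from 9 lists. Their counts are to be read against the shares of all genes that passed, which were 1.28% in edgeR, 19.2% at an unadjusted p under 0.05, 6.10% with DESeq2 and 2.97% with limma-voom. Without accumbens replicate 1 or replicate 2 the shares were 18.2% and 28.9%. Calcineurin, which dephosphorylates DARPP-32 at the protein kinase A site, had 1 of 4 tested genes past the threshold, and it was lower in accumbens. This was Ppp3ca, the gene of its main catalytic subunit in brain, at 1465 and 1234 CPM in accumbens against 2342 and 2357 CPM in dorsal striatum. Its log2 fold change came to −0.80 (SE 0.12, 95% interval −1.07 to −0.53, edgeR adjusted p = 0.0295), a level 1.74-fold lower in accumbens. Ppp3ca passed under each of the 11 alternatives in which it was tested, with adjusted p-values of at most 0.0333. For the list, 2 of 4 genes were called lower under 7 of 12 alternatives, DESeq2, limma-voom and the fits without either accumbens library among them. The median of the list was −0.51, beside 0.02 for all genes. Counts of Ppp3ca per count of Ppp1r1b were 1.36 and 1.30 in accumbens against 2.34 and 1.87 in dorsal striatum, without overlap.

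Among the R3H-domain relatives of Arpp21 and the small calmodulin regulators, 1 of 5 tested genes passed and was lower in accumbens. Nrgn, which encodes the calmodulin-binding protein neurogranin, was at 91.3 and 91.4 CPM in accumbens against 159.5 and 254.6 CPM in dorsal striatum. This is a log2 fold change of −1.18 (SE 0.22, 95% interval −1.68 to −0.69, edgeR adjusted p = 0.0470). The dorsal striatum libraries differed from each other more than the accumbens libraries did, and without dorsal striatum replicate 2 Nrgn did not pass (log2 fold change −0.81, edgeR adjusted p = 0.130). With DESeq2 size factors it also missed the threshold (adjusted p = 0.0527). The median of the 5 genes was 0.09. Pcp4, a sixth gene of this list, had 6 and 2 counts in accumbens and 3 and 4 in dorsal striatum and was not tested; exons of Igsf5 on the same strand cover 23.7% of its exon bases.

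Of the kinases known to phosphorylate DARPP-32, 0 of 10 passed in edgeR in either direction, and the median was 0.13. At an unadjusted p under 0.05, 2 were higher and 1 lower in accumbens, and the adjusted calls were 2 higher with DESeq2 and 1 higher with limma-voom. The protein kinase A catalytic subunit genes were the most abundant. Prkacb was at 888.7 and 849.7 CPM in accumbens against 967.6 and 1045 CPM in dorsal striatum, and Prkaca at 173.9 and 175.4 CPM in accumbens against 95.2 and 121.9 CPM in dorsal striatum. In log2 fold change they stood at −0.21 (SE 0.11, edgeR adjusted p = 0.338) for Prkacb and 0.68 (SE 0.16, edgeR adjusted p = 0.0801) for Prkaca. Prkaca passed under 6 of 12 alternatives, DESeq2 (adjusted p = 0.00489) and limma-voom (adjusted p = 0.0463) among them. Without either accumbens library edgeR called 2 of these kinase genes higher, and without replicate 2 also 1 lower (18.2% and 28.9% of all genes in these fits).

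Other regulatory subunits of PP1 gave 0 edgeR calls in 30 tested genes, with a median of −0.02 and a range of −1.52 to 1.54 on the log2 scale. At an unadjusted p under 0.05, 3 were higher and 7 lower in accumbens, while DESeq2 called 1 lower and limma-voom called 0. With edgeR the calls numbered 2 higher and 5 lower when accumbens replicate 1 was left out, against 5 higher and 6 lower when replicate 2 was (18.2% and 28.9% of all genes in these fits). Besides Ppp1r9a the most abundant was Phactr1, a PP1- and actin-binding protein gene, at 995.7 and 894.1 CPM in accumbens against 748.6 and 850.6 CPM in dorsal striatum (a log2 fold change of 0.24, SE 0.12, edgeR adjusted p = 0.324). Subunits of PP2A with Ensa and Mastl gave 0 edgeR calls in 18 genes, with a median of −0.07, 3 lower at an unadjusted p under 0.05, 1 lower with DESeq2 and 0 calls with limma-voom. Without accumbens replicate 1 or 2, edgeR called 1 and 2 lower, shares under the 18.2% and 28.9% of all genes. Ppp2r2c, a PP2A regulatory subunit gene, was at 276.4 and 277.5 CPM in accumbens against 247.3 and 258.0 CPM in dorsal striatum, and Ppp2r1a, the scaffold subunit gene, at 282.6 and 251.9 CPM against 215.2 and 249.7 CPM. Neither passed (edgeR adjusted p = 0.599 and 0.475). Counts of Arpp19 per count of its paralog Ensa were 3.01 and 1.99 in accumbens against 3.90 and 2.95 in dorsal striatum, with overlap.

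Activators and partners of Cdk5 gave 0 calls in 7 genes with edgeR, DESeq2 and limma-voom, with a median of 0.01 and 1 gene lower at an unadjusted p under 0.05. Leaving out accumbens replicate 1 gave 1 edgeR call, lower, and leaving out replicate 2 gave 1 in each direction (18.2% and 28.9% of all genes in these fits). Cdk5r1, which encodes the activator p35, was at 139.9 and 138.8 CPM in accumbens against 142.5 and 133.7 CPM in dorsal striatum (a log2 fold change of 0.01, 95% interval −0.29 to 0.32). Cdk5r2, the gene of the activator p39, was at 138.1 and 111.5 CPM in accumbens against 83.1 and 113.5 CPM in dorsal striatum (a log2 fold change of 0.34, SE 0.19, edgeR adjusted p = 0.378).

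Known substrates of STEP gave 0 calls in 7 genes with edgeR, DESeq2 and limma-voom, with a median of 0.11 and 1 gene in each direction at an unadjusted p under 0.05. When accumbens replicate 1 was left out, edgeR called 1 in each direction, and without accumbens replicate 2 it called 1 lower (18.2% and 28.9% of all genes in these fits). Gria2, an AMPA receptor subunit gene, was at 1142 and 983.9 CPM in accumbens against 1179.8 and 1195 CPM in dorsal striatum (edgeR adjusted p = 0.504). Other tyrosine phosphatases of its class gave 0 edgeR calls in 14 tested genes, with a median of 0.05, 2 genes in each direction at an unadjusted p under 0.05, 1 higher with DESeq2 and 0 calls with limma-voom. Without accumbens replicate 1, edgeR called 2 higher and 1 lower, and without accumbens replicate 2 it called 2 in each direction (18.2% and 28.9% of all genes in these fits). Ptpn11, the SHP2 gene, was at 173.2 and 161.3 CPM in accumbens against 193.6 and 187.0 CPM in dorsal striatum, and Ptpn4 at 72.3 and 87.3 CPM against 105.7 and 100.4 CPM (edgeR adjusted p = 0.484 and 0.259).

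Receptors, G protein subunits, cyclase and phosphodiesterase genes upstream of DARPP-32 gave 0 edgeR calls in 9 genes, with a median of −0.15. At an unadjusted p under 0.05, 2 were higher and 1 lower, and DESeq2 called 1 lower and limma-voom 0. Without accumbens replicate 1, edgeR called 2 lower, and without accumbens replicate 2 it called 3 higher (18.2% and 28.9% of all genes in these fits). Pde10a, the phosphodiesterase gene most characteristic of SPNs, was at 1618 and 1258 CPM in accumbens against 1994 and 1961 CPM in dorsal striatum, and both accumbens libraries were lower (log2 fold change −0.46, SE 0.13, edgeR adjusted p = 0.126). It passed under 4 of 11 alternatives. Gnal, the gene of the G protein subunit that couples D1 receptors to adenylyl cyclase in striatum, was at 1607 and 1340.4 CPM in accumbens against 1241 and 1184 CPM in dorsal striatum (a log2 fold change of 0.28, SE 0.12, edgeR adjusted p = 0.256).

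**Figure D5:**
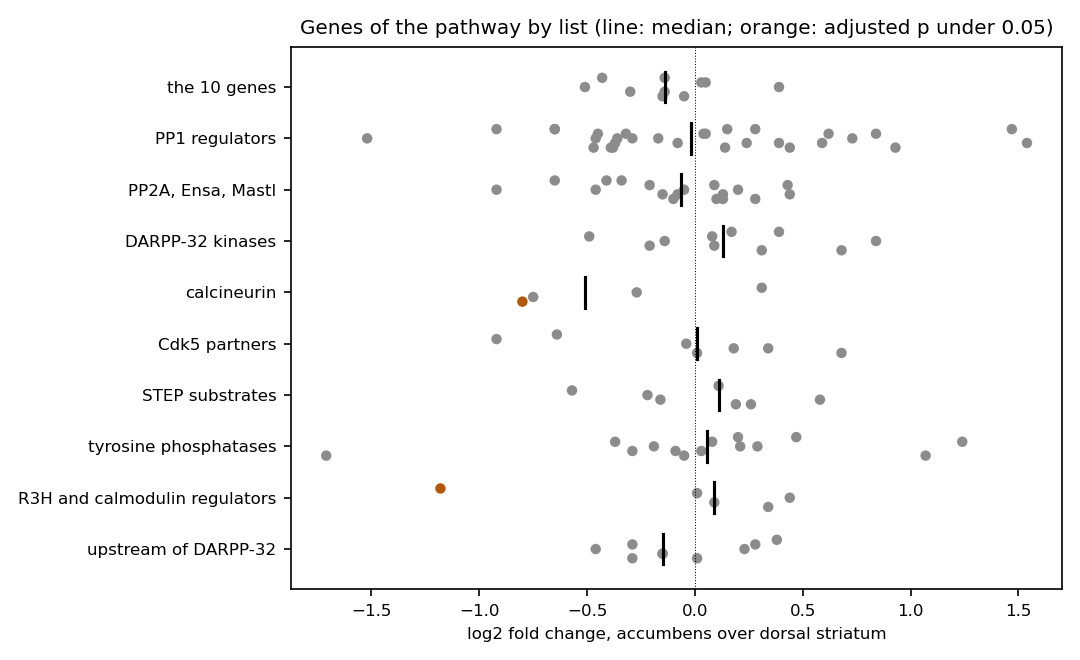
Log2 fold change, accumbens over dorsal striatum (horizontal axis), of the 10 genes and of every tested gene in the 9 pathway lists, 1 point per gene, with a line at each median. Ppp3ca in the calcineurin list and Nrgn among the calmodulin regulators (orange) are the genes of these lists that passed, both lower in accumbens.

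The genes whose profile over the 4 libraries was nearest to that of Ppp1r1b were Rbm34, Bod1, Zfp512, Puf60 and Rcan2. Likeness was the Euclidean distance between centred log2 CPM profiles, among 5382 genes with a mean of at least 30 CPM. The distances were 0.0387 for Rbm34 to 0.0656 for Rcan2, where the median gene was at 0.490. Rcan2, a regulator of calcineurin, was at 323.8 and 291.3 CPM in accumbens against 311.9 and 369.8 CPM in dorsal striatum. None of the 5 passed, with log2 fold changes of −0.18 to −0.10. With 4 libraries such likeness is a description only.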

How the data were processed

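Input RNA of accumbens and dorsal striatum was sequenced, with 2 libraries per region, grouped by the tissue in the labels. The values deposited by the authors are raw counts per gene symbol. The submitters' processing notes name STAR 2.0.0e, HTSeq and mm10; which annotation and strand setting were used is not given in the sources used here. Rows that name no gene were left out of the tests and of library sizes. Among them, reads in no feature came to 27.5% to 35.4% of all counted rows. Counts measure reads, not molecules, so depth limits precision for genes with few counts.

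Counts were scaled by TMM and tested with glmQLFit and glmQLFTest of edgeR 4.0.16 in R 4.3.3, after filterByExpr, with region as the only term. Tests were two-sided, with Benjamini-Hochberg adjustment over all tested genes and a threshold of 0.05. Standard errors are the size of the log2 fold change over the square root of F, and 95% intervals use the t distribution with the fit's degrees of freedom. The fit was tested on simulated data. Alternatives were DESeq2 1.42.0, limma-voom (limma 3.58.1), other scalings, no low-count filter, a replicate block, each library left out and the 50 most abundant genes left out.

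Gene positions, exon lengths and 50-base words came from the GENCODE annotation of GRCm38, whose chromosomes are those of mm10. 1 list gene, Ptpa, was found under its older symbol, Ppp2r4. From each pathway list up to 3 genes past the threshold in each direction were named, or else the 2 most abundant; 1 gene so chosen is not reported here. The genes and lists were chosen with earlier results of these data known, and the ratios between genes after values were seen.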

Additional observations from a re-analysis of the deposited data

How the results depend on the processing

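Of all genes 186 passed. The count was 1203 with no filter on low counts, 884 with DESeq2, 431 with limma-voom and 843 with the replicate block, and 109 to 4464 with 1 library left out. Of the 10 genes 0 passed, and 1, Arpp19, did so with no filter, with DESeq2 and with the replicate block; with 1 library left out the count was 0 to 1. The libraries share replicate numbers in the labels, but same-numbered libraries did not deviate together (correlation 0.037 across 14288 genes). The labels do not say whether same-numbered libraries share an animal. With 2 libraries per region this correlation cannot decide it. Among named genes the block newly passed Arpp19 (adjusted p = 0.0341), Prkaca (0.00921) and Pde10a (0.0360). With 77.4% of calls higher in accumbens under TMM, the share was 67.4% after upper-quartile scaling and 29.5% by library size alone, where the median of all genes was −0.15. Arpp21, Ppp3ca, Ppp1r9a, Gria2, Pde10a and Gnal belong to the 50 most abundant genes and were not tested in the fit without these.

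Over the single-gene and list results, 409 were unchanged. For a gene this means the same direction and side of the threshold, and for a list the same number of calls, whatever their direction. Of the rest, 18 newly passed, 2 no longer passed, 41 list counts moved and 16 fold changes of genes that had not passed turned their sign. The cause was not tested. With upper-quartile scaling Ppp1r9b was at −0.0234 and Cdk5r1 at −0.0410. With library size alone Ptpn5 was at −0.12, Ppp1r9b at −0.14, Ppp2r2c at −0.0389 and Cdk5r1 at −0.16; relative to the median of all genes Ptpn5 was at 0.04 and Ppp1r9b at 0.01. With 1 library left out the ranges were −0.33 to 0.0165 for Ppp1r1b, −0.0535 to 0.147 for Ptpn5, −0.128 to 0.0161 for Ppp1cb, −0.0920 to 0.137 for Ppp1r9b, −0.0374 to 0.0395 for Cdk5r1, −0.342 to 0.0165 for Rbm34 and −0.285 to 0.0736 for Zfp512. With 2 libraries per region, the intervals limit what can be said of genes that did not pass.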

Other observations

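The 5 pathway genes given here missed the adjusted threshold in edgeR with all 4 libraries and were chosen after their values were seen. Ptprr, the receptor-type phosphatase gene closest to STEP, was at 35.8 and 25.1 CPM in accumbens against 12 and 13.8 CPM in dorsal striatum (a log2 fold change of 1.24, edgeR adjusted p = 0.0762). Prkg1, the gene of a cGMP-dependent kinase that phosphorylates DARPP-32, was at 57.6 and 54.9 CPM in accumbens against 25.7 and 36.7 CPM in dorsal striatum (a log2 fold change of 0.84, edgeR adjusted p = 0.101). Ppp3cb, a second calcineurin catalytic subunit gene, was at 63.4 and 73.0 CPM in accumbens against 109.6 and 119.6 CPM in dorsal striatum (a log2 fold change of −0.75, edgeR adjusted p = 0.0639). Ppp3r1, the gene of the calcineurin regulatory subunit, was at 554.7 and 511.1 CPM in accumbens against 431.6 and 430.0 CPM in dorsal striatum. Its direction was opposite to that of Ppp3ca and Ppp3cb (log2 fold change 0.31, edgeR adjusted p = 0.204). Exons of Wdr92 on the same strand cover 14.3% of the exon bases of Ppp3r1. Ppp2r2d, a PP2A regulatory subunit gene of the class that ARPP-19 acts on, was at 16.8 and 23.0 CPM in accumbens against 34.8 and 40.5 CPM in dorsal striatum (a log2 fold change of −0.92, edgeR adjusted p = 0.109).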
